A study of Mus musculus with 10 samples.

Results

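The genes described here are 10 genes that activate or bind fatty acids, namely the long-chain acyl-CoA synthetases Acsl1, Acsl3, Acsl4, Acsl5 and Acsl6, the bubblegum synthetase Acsbg1, the fatty acid transport proteins Slc27a1 and Slc27a4, and the fatty acid binding proteins Fabp5 and Fabp7. They were chosen by name, from their GENCODE M21 symbols, out of 55536 mouse genes in the count tables, and all 10 passed the filter on low counts in every comparison. The RNA-Seq tables came from 5 mice aged 1 year, each of which gave its cerebellum and its cortex. The 2 Snx14-KO mice were homozygous for a frameshift 1-bp deletion made by CRISPR on the C57BL/6J background, and of the 3 control mice controls 1 and 2 were Het and control 3 was WT. The control group therefore mixed 2 genotypes, the Het mice carried the KO allele too, and Snx14 was disrupted in the whole body rather than in a chosen cell type. Each tissue was a mixture of cells, and in such bulk samples fewer cells of a type and less RNA per cell cannot be told apart.

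A free fatty acid has to be joined to coenzyme A before a cell can burn it, store it as triglyceride or build it into a phospholipid. Acyl-CoA synthetases carry out this step, and the family members differ in where they sit and which chains they prefer. Acsl1 is a major synthetase of fat, heart and liver, Acsl3 sits on the endoplasmic reticulum and on growing lipid droplets, Acsl4 prefers arachidonic acid, Acsl5 is best known from intestine, and Acsl6 is a brain synthetase needed to hold docosahexaenoic acid in membranes. Acsbg1 is an astrocyte synthetase for long and very long chains, Slc27a1 (FATP1) and Slc27a4 (FATP4) couple uptake to activation, and the small carriers Fabp5 and Fabp7 move fatty acids through the cytoplasm, with Fabp7 a classical product of radial glia, astrocytes and Bergmann glia. SNX14 itself is an endoplasmic reticulum protein found at contacts with lipid droplets, and its loss in humans causes a recessive cerebellar ataxia.

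Counts assigned to genes came to between 16088310 and 22975355 per library. Values below are CPM, that is counts per 1000000 counts of the library, scaled by TMM factors over the 10 libraries. Snx14 itself read 42.7, 39.8 and 73.2 CPM in the cerebellum of controls 1, 2 and 3 against 15.5 and 17.4 CPM in the KO mice, and 34.3, 34.9 and 50.8 CPM in control cortex against 14.8 and 16.1 CPM in KO cortex, so every KO library lay below every control and both Het mice lay below the WT mouse. Purkinje cell markers separated the tissues and the genotypes. Their summed level, over 8 markers, was 8027 to 9840 CPM in control cerebellum, 4042 to 4141 CPM in KO cerebellum and 1005 to 1249 CPM in cortex. Control mouse 2 stood apart from the other controls in both tissues. Its 8 summed oligodendrocyte markers were 1.35 times the mean of controls 1 and 3 in cerebellum and 1.83 times in cortex, and its 7 summed striatum markers in cortex were 2.46 times that mean. Choroid plexus markers summed to 60.0 CPM in the cerebellum of KO 1 and to 1194 CPM or more in the other 4 cerebella. Control 2 and KO 2 expressed the Y-linked gene Ddx3y at 60.9 CPM or more in both tissues, and the other 3 mice at 0.166 CPM or less.

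The first question was whether loss of SNX14 changed the members in the cerebellum, the tissue that degenerates. No member was called by edgeR at an adjusted p under 0.05 with an absolute log2 change over 0.5, a rule that 1.55% of the 19447 genes tested met (0.514% higher, 1.04% lower). At the adjusted p alone 2 members, Acsl3 and Slc27a1, were higher in KO cerebellum, against 2.14% of all genes (0.735% higher, 1.41% lower). The same 2 were the ones with an unadjusted p under 0.05, which 13.4% of all genes had, and the ones that DESeq2 found at an adjusted p under 0.05. The median log2 change over the 10 members was 0.08, beside 0.00 over all genes tested, with 7 members on the positive and 3 on the negative side. For 3 members, all higher in KO, every KO library lay outside the control range, as it did for 30% of all genes (15.5% higher, 14.6% lower).

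**Figure D1:**
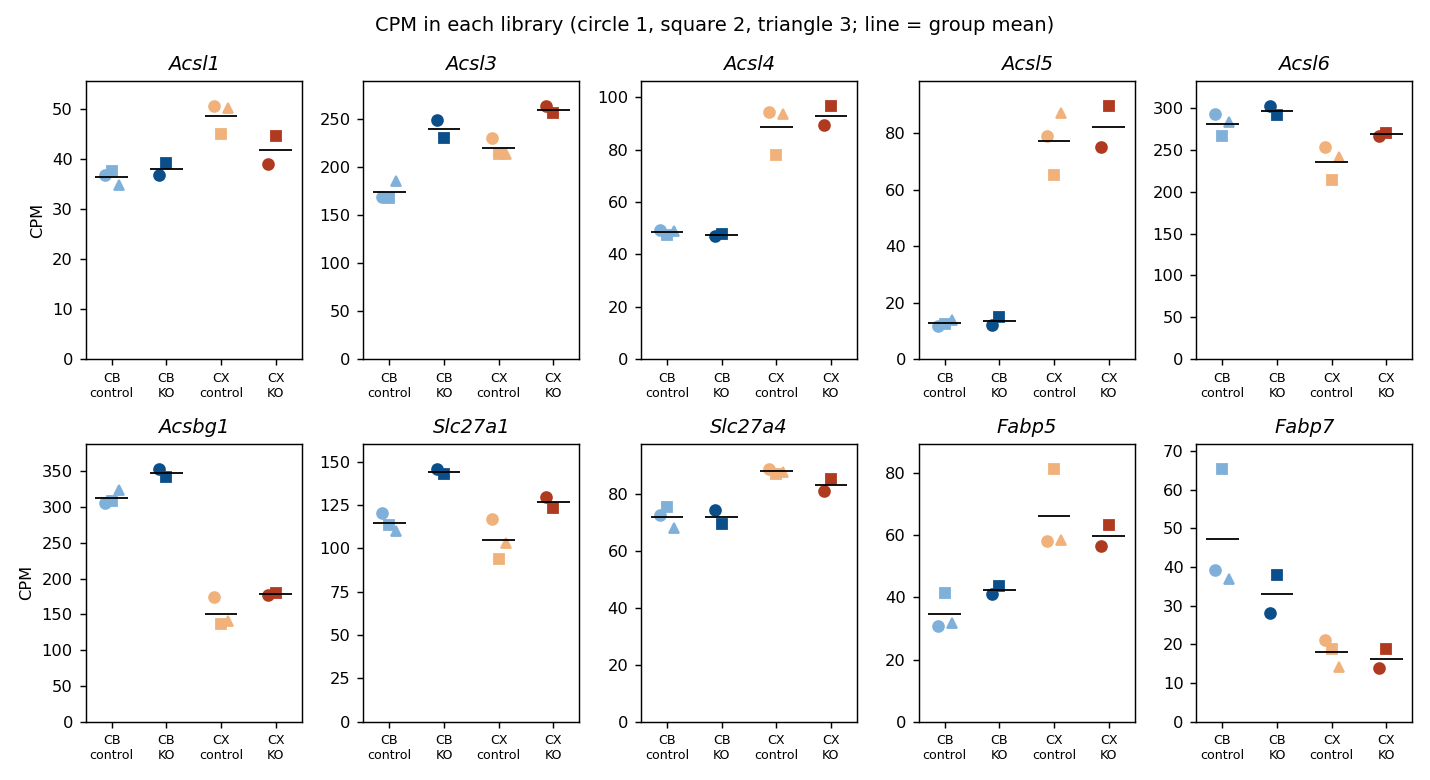
CPM of each member (vertical axes, from 0) in the 10 libraries, grouped by tissue (CB, cerebellum; CX, cortex) and genotype, with symbols for the replicate number and a line at each group mean. In cerebellum the KO points of Acsl3 (230 and 248 CPM) and Slc27a1 (143 and 146 CPM) lie above all 3 controls, and control 2 is the highest point for Fabp7 in cerebellum and for Fabp5 in cortex.

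Acsl3, the synthetase of endoplasmic reticulum and lipid droplets (chr1:78657825-78707743, plus strand, GRCm38), read 169, 168 and 186 CPM in the cerebellum of controls 1, 2 and 3 and 248 and 230 CPM in KO 1 and KO 2. Both KO libraries were above the WT control as well as above both Het controls. The fitted log2 change was 0.45 ± 0.07 (SE; 95% confidence interval 0.29 to 0.61), a 1.37-fold difference with an adjusted p of 0.0166 in edgeR's quasi-likelihood test. Across 10 alternative settings the log2 change stayed between 0.39 and 0.50, and the adjusted p was under 0.05 in 8 of them. The lowest adjusted p, 1.2e-06, came from the edgeR fit without the filter on low counts. Leaving out KO 1 gave an adjusted p of 0.128 and leaving out control 1 gave 0.117.

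Slc27a1, a transport protein with synthetase activity (chr8:71568882-71587302, plus strand), read 120, 113 and 110 CPM in control cerebellum and 146 and 143 CPM in KO cerebellum. The KO libraries were close together and stood above all controls, with a log2 change of 0.32 ± 0.06 (SE; 95% confidence interval 0.18 to 0.46) and an adjusted p of 0.0368 in edgeR. Over the 10 alternatives the adjusted p ran from 0.0013, without the filter on low counts, to 0.209, with the replicate block, and was under 0.05 in 4. Its homolog Slc27a4 read 72.6, 75.4 and 68.2 CPM in controls and 74.5 and 69.6 CPM in KO mice. The 95% confidence interval of the Slc27a4 log2 change was -0.17 to 0.15. The homologs were not tested against each other.

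Sequence upstream of the transcription start is printed for the pair that passed the adjusted p in cerebellum and for Acsl5 and Fabp7, the members with the largest tissue differences given further on. Each run holds the bases before the RefSeq start (GRCm38.p6, 5′ to 3′ on the gene's strand) that lie in no GENCODE exon. Capitals mark the GC box GGGCGG and the CCAAT box on either strand, and a match of each motif stands side by side in Acsl3 with no shared base. Where the table gave several starts for a gene, the one nearest to the GENCODE start was used. For Acsl5 the only RefSeq start given lay 1431 bases downstream of the GENCODE start, so its run lies inside the gene. The RefSeq starts of Acsl3, Slc27a1 and Fabp7 lay within 42 bases of their GENCODE starts.
Acsl3, chr1:78657575-78657824, plus strand: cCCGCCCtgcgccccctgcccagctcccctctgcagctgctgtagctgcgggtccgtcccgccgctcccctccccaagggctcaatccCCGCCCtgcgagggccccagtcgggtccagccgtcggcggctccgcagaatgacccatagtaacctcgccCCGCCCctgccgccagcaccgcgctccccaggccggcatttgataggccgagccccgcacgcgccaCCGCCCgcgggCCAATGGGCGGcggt
Slc27a1, chr8:71568621-71568870, plus strand: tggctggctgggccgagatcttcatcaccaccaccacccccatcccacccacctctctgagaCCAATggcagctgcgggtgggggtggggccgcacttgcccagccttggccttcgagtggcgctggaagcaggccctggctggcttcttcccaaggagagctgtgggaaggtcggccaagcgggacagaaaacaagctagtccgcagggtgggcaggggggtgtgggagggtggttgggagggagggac
Acsl5, chr19:55253119-55253368, plus strand: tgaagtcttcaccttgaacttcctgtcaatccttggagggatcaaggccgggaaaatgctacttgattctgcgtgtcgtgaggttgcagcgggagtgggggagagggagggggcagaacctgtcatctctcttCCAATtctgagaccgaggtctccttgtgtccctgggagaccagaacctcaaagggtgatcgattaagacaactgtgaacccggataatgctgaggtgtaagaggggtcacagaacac
Fabp7, chr10:57784673-57784880, plus strand: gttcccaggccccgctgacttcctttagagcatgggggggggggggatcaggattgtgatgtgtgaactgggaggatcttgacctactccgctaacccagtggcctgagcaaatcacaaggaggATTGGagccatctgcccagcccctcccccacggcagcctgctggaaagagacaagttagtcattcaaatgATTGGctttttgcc

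The Acsl3 run held 5 matches to the GC box and 1 CCAAT box, whereas the runs of Slc27a1, Acsl5 and Fabp7 held no GC box and 1, 1 and 2 CCAAT boxes. As the Acsl5 run lies inside its gene, its counts are not from a like window. Of the 9 members with an entry in the RefSeq promoter table, 5 had a GC box and 6 a CCAAT box in the 250 bases before the start, beside 32.7% and 33.8% of all 32851 windows in the table. TATAAA was in no member window and in 12.4% of all windows. A direct repeat of AGGTCA with 1 base between the copies, the form bound by peroxisome proliferator-activated receptors, was in no member window and in 0.0335% of all windows, so these letters are rare in any window of this length. Fabp5 had no entry.

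The other synthetases in cerebellum showed no difference past the test. Acsbg1 read 306, 309 and 324 CPM in controls and 353 and 342 CPM in KO cerebellum, with no overlap between the groups, a log2 change of 0.14 (95% confidence interval -0.01 to 0.30) and an adjusted p of 0.419 in edgeR. Acsl1 read 36.9, 37.7 and 34.9 CPM in controls and 36.8 and 39.2 CPM in KO mice. Acsl4 stayed between 46.9 and 49.3 CPM in all 5 cerebella, Acsl5 between 11.8 and 14.9 CPM and Acsl6 between 266 and 302 CPM. These ranges overlapped between the genotypes, and the log2 changes of the 4 were between -0.05 and 0.08. The interval for Acsl4 was -0.20 to 0.11 and that for Acsl5, the member with the fewest counts, was -0.25 to 0.41. Acsl4 is X-linked, and its cerebellar level did not follow the Ddx3y signal, at 47.5 and 47.7 CPM in the mice that expressed Ddx3y and 46.9 to 49.3 CPM in the others.

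The values of both carriers in cerebellum depended on single libraries. Fabp5, the epidermal-type carrier (chr3:10012548-10016607, plus strand), read 30.7, 41.5 and 31.7 CPM in control cerebellum and 41.2 and 43.7 CPM in KO cerebellum, so that only control 2 reached the KO level. The log2 change was 0.28 ± 0.13 (SE) with an adjusted p of 0.410 in edgeR, and without control 2 it was 0.44 with an adjusted p of 0.0306, within a range of 0.0306 to 0.727 over the alternatives. Fabp7, the glial carrier (chr10:57784881-57788450, plus strand), read 39.2, 65.3 and 36.9 CPM in controls and 28.2 and 37.9 CPM in KO cerebellum, where KO 2 lay inside the control range. Its log2 change of -0.52 ± 0.24 (SE; adjusted p 0.421 in edgeR) became -0.20 without control 2, -0.33 without KO 1 and -0.76 without KO 2, the range over the libraries left out being -0.76 to -0.20. Over the alternatives its adjusted p ran from 1.2e-05, without the filter on low counts, to 0.768. The mouse that was highest among the controls for both carriers in cerebellum was also the control with the highest oligodendrocyte markers, 6648 CPM against 4432 and 5423 CPM in the other control cerebella. In KO 1 and KO 2 these markers summed to 5903 and 7557 CPM. KO 2, the highest cerebellum for these markers, had the highest cerebellar Fabp5 value, 43.7 CPM. Its Fabp7 value of 37.9 CPM lay inside the control range. Against the mean of controls 1 and 3, control 2 also stood apart in choroid plexus (0.38 times), fibroblast (0.59 times) and blood markers (1.80 times). Whether the composition of control 2 had a part in the carrier values was not tested.

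**Figure D2:**
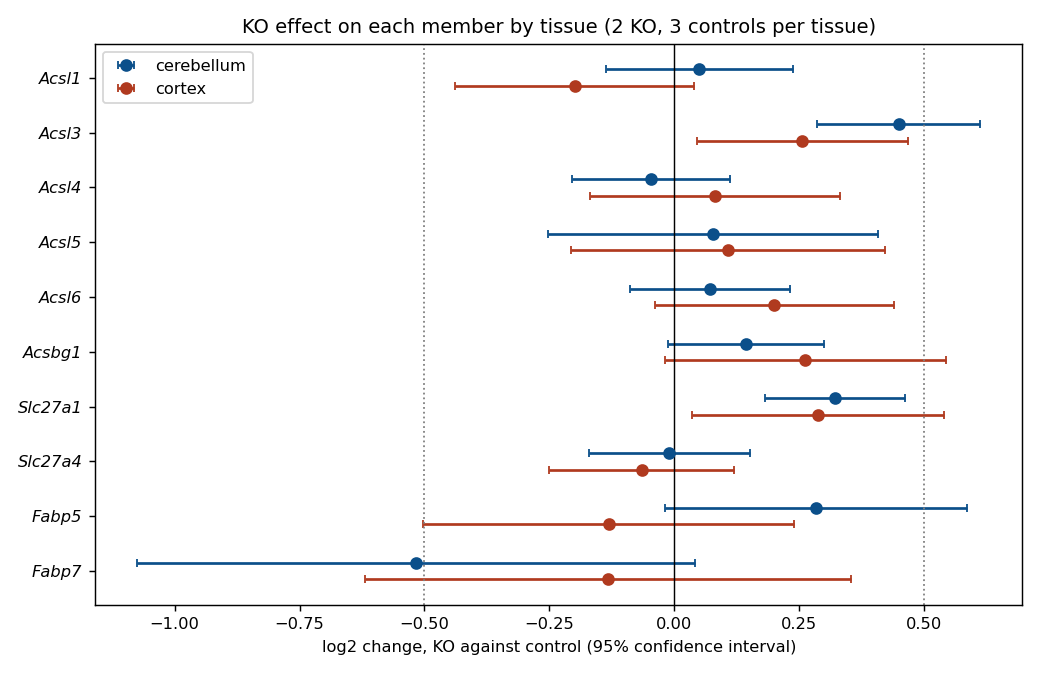
Fitted log2 change of KO against control for each member (points) with its 95% confidence interval (bars), in cerebellum (blue) and cortex (red), 2 KO and 3 control mice per tissue, and dotted lines at the fold threshold. The intervals of Acsl3 and Slc27a1 lie above 0 in both tissues, and Fabp7 in cerebellum has the widest interval, -1.08 to 0.04.

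Markers of several other cell types, though not all, moved with genotype in the same cerebella. The 5 reactive astrocyte markers summed to 355 to 421 CPM in controls and to 714 and 740 CPM in KO mice, with 2 of the 5 called higher, and Gfap alone went from 190 to 223 CPM in controls to 505 and 496 CPM in KO mice. Microglia markers summed to 188 to 210 CPM in controls and to 277 and 285 CPM in KO mice, with 3 of 9 called higher. The 9 markers of disease-associated microglia summed to 46.5 to 56.2 CPM in controls and to 96.7 and 123 CPM in KO mice, with 2 called higher and all 9 at an unadjusted p under 0.05. Fibroblast markers, 6 in number, summed to 52.7 to 97.9 CPM in controls and to 102 and 134 CPM in KO mice, with none called by edgeR and 3 at an unadjusted p under 0.05. The summed 8 markers of astrocytes and Bergmann glia overlapped, at 3666 to 3812 CPM in controls and 3794 and 3943 CPM in KO mice, although Aqp4 and Gja1 were called higher and 1 other marker lower. All 8 Purkinje cell markers were called lower. Granule cell markers overlapped, at 3051 to 3682 CPM in controls and 3571 and 2955 CPM in KO mice. Sums of oligodendrocyte markers (4432 to 6648 CPM against 5903 and 7557 CPM) and of oligodendrocyte precursor markers (46.0 to 52.7 CPM against 51.9 and 68.0 CPM) overlapped as well. So did those of choroid plexus markers (1194 to 3377 CPM against 60.0 and 2896 CPM). No marker in these lists was at 0 in any group. The part of these shifts in the Acsl3 and Slc27a1 values was not tested.

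**Figure D3:**
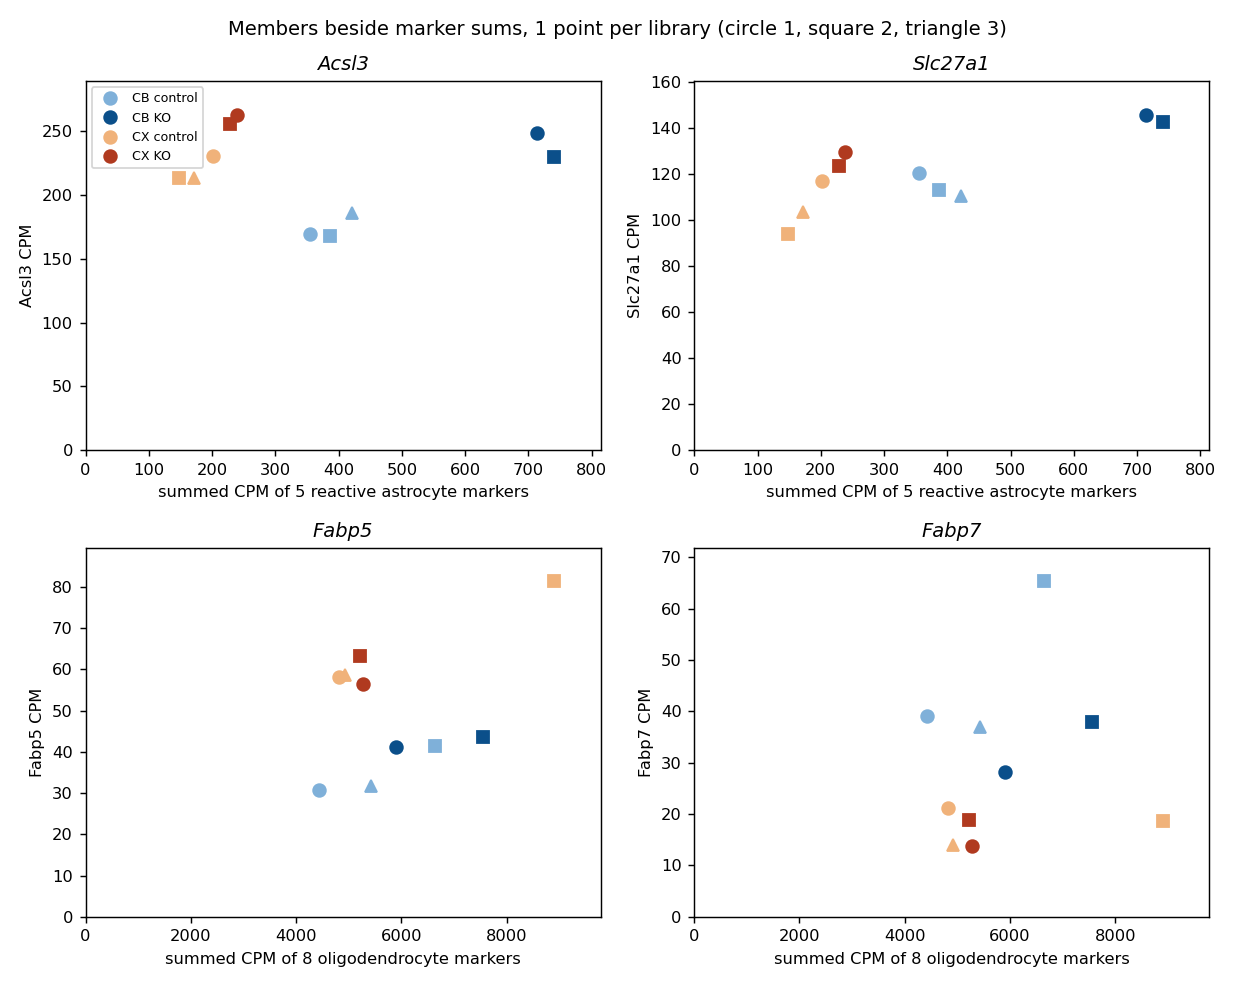
CPM of Acsl3 and Slc27a1 against the summed CPM of 5 reactive astrocyte markers, and of Fabp5 and Fabp7 against the summed CPM of 8 oligodendrocyte markers, with 1 point per library and axes from 0. KO cerebellum lies apart on the reactive astrocyte axis (714 and 740 CPM), and the cortex of control 2 lies apart on the oligodendrocyte axis (8900 CPM), where Fabp5 is also highest (81.4 CPM). Fabp7 in that cortex is 18.7 CPM, inside the control range. Its striatum and blood markers, not drawn, are 2.46 and 2.19 times the mean of controls 1 and 3.

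In cortex, the tissue taken for comparison, no member was called and no gene among the 19202 tested was (0%). Even Snx14, the targeted gene, was not called there at a log2 change of -1.36, so the test missed a known difference. At an unadjusted p under 0.05 there were 2 members, again Acsl3 and Slc27a1, beside 5.93% of all genes, and DESeq2 found no member at an adjusted p under 0.05. Acsl3 read 230, 214 and 214 CPM in control cortex and 263 and 256 CPM in KO cortex, above all controls, with a log2 change of 0.26 ± 0.09 (SE) and an adjusted p of 0.796 in edgeR. Slc27a1 read 117, 94.0 and 103 CPM in controls and 130 and 123 CPM in KO mice, with a log2 change of 0.29 ± 0.11 (SE) and an adjusted p of 0.797. Without the cortex of control 2 the adjusted p in edgeR was 0.146 for Acsl3 and 0.235 for Slc27a1, the lowest over their alternatives. Acsbg1 (174, 137 and 141 CPM against 178 and 180 CPM) and Acsl6 (253, 213 and 241 CPM against 267 and 270 CPM) also had both KO libraries above the controls. For Acsl1 (50.6, 45.0 and 50.2 CPM against 39.1 and 44.7 CPM) and Slc27a4 (88.9, 87.3 and 88.0 CPM against 81.3 and 85.5 CPM) both KO libraries were below them. That made 6 members without overlap, 4 higher and 2 lower, where 24.7% of all genes showed none (10.5% higher, 14.2% lower).

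The remaining members overlapped in cortex. Acsl4 read 94.5, 78.0 and 93.6 CPM in controls and 89.3 and 96.5 CPM in KO cortex, Acsl5 read 78.9, 65.3 and 87.1 CPM and then 75.1 and 89.5 CPM, and in both cases control 2 was the lowest library. Fabp5 read 58.3, 81.4 and 58.7 CPM in controls and 56.4 and 63.3 CPM in KO mice, so that its log2 change of -0.13 turned to 0.05 without control 2. Fabp7 read 21.1, 18.7 and 14.1 CPM in controls and 13.8 and 18.8 CPM in KO mice. Beside these values, the cortex of control 2 had the lowest sum of astrocyte and Bergmann glia markers, 2773 CPM against 3709 CPM or more in the other 4 cortices, and striatum markers summed to 1181 to 3074 CPM in controls and to 363 and 736 CPM in KO cortex. Reactive astrocyte markers summed to 148 to 202 CPM in control and to 229 and 239 CPM in KO cortex. Their part in the cortical differences was not tested.

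No member had a KO effect that differed between the tissues by edgeR at an adjusted p under 0.05, a test that 0.102% of 20614 genes passed (0.0243% with a higher and 0.0776% with a lower effect in cerebellum). No member did at an unadjusted p under 0.05, where 8.28% of all genes did, or with DESeq2. The difference of the log2 changes, cerebellum minus cortex, was 0.21 for Acsl3 (95% confidence interval -0.03 to 0.46) and 0.06 for Slc27a1 (-0.22 to 0.34). For Fabp5 it was 0.44 (-0.07 to 0.95). Because each mouse gave both tissues, its own ratio of cerebellum to cortex could be read. The log2 ratio of Fabp5 was -0.92, -0.97 and -0.89 in controls 1, 2 and 3 and -0.45 and -0.54 in KO 1 and KO 2. The controls were close together, control 2 included, and both KO ratios stood above them. With the mouse as a block the Fabp5 difference had an adjusted p of 0.115, the lowest over its 16 alternatives, whose highest was 0.971. Within-mouse ratios of Acsl1 and Acsl3 were also higher in both KO mice and that of Acsl6 lower, which made 4 of 10 members without overlap beside 28% of all genes.

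More members were called between the control tissues than between the genotypes. Between cerebellum and cortex of the 3 control mice 5 members were called, 2 higher and 3 lower in cerebellum, beside 40.5% of the 19416 genes tested (19.1% higher, 21.5% lower). At the adjusted p alone 9 members passed (3 higher, 6 lower) beside 53.3% of all genes (26.5% higher, 26.8% lower), and the same 9 had an unadjusted p under 0.05, as 59% of all genes did. The same 5 were called with the mouse as a block, with DESeq2, with DESeq2 size factors, without the filter and without any 1 library. The libraries of the tissues did not overlap for 9 members, that is all but Slc27a1, and for 61.7% of all genes (31.5% higher, 30.3% lower).

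Acsl5 (chr19:55251938-55297720, plus strand) had the largest difference among the members. It read 11.8, 12.3 and 13.9 CPM in control cerebellum and 78.9, 65.3 and 87.1 CPM in control cortex, a log2 difference of -2.61 ± 0.13 (SE) or 6.09-fold, with an adjusted p of 6.9e-07 in edgeR. Acsl4 (chrX:142317993-142390535, minus strand) read 49.3, 47.5 and 48.9 CPM in cerebellum and 94.5, 78.0 and 93.6 CPM in cortex, 1.83-fold lower in cerebellum with an adjusted p of 6.3e-05. Fabp5, whose values are given above, was 1.91-fold lower in cerebellum (adjusted p 0.00126). Acsl1 and Acsl3 were lower in cerebellum by less than the fold threshold, with log2 differences of -0.42 (adjusted p 0.00279) and -0.34 (adjusted p 0.00634), and Slc27a4 by -0.29 (adjusted p 0.00715). Acsl1 passed the threshold, at -0.52, in both fits without control mouse 2.

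Acsbg1 and Fabp7, both glial genes, were the members called higher in cerebellum. Acsbg1 (chr9:54604877-54661870, minus strand) read 306, 309 and 324 CPM in cerebellum and 174, 137 and 141 CPM in cortex, a log2 difference of 1.05 ± 0.10 (SE; adjusted p 4.8e-05 in edgeR) or 2.07-fold. Fabp7 was 2.61-fold higher (log2 1.39 ± 0.23, SE; adjusted p 0.00113), with its lowest control cerebellum at 36.9 CPM and its highest control cortex at 21.1 CPM. Acsl6 was higher by 0.25 with an adjusted p of 0.0440, which was under 0.05 in 6 of 13 alternatives, between 0.0111 and 0.144. For Slc27a1 the difference was 0.13 (95% confidence interval -0.08 to 0.34), the only member for which the tissues overlapped.

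**Figure D4:**
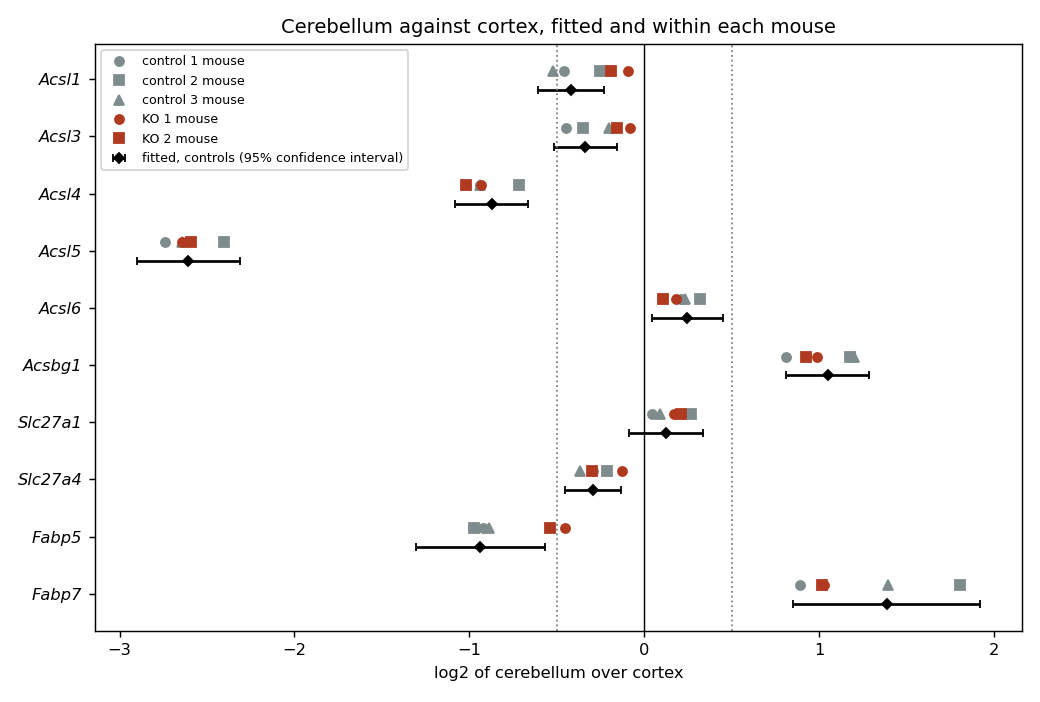
Log2 of cerebellum over cortex for each member. Black diamonds with bars give the fit over 3 control mice with its 95% confidence interval. Grey symbols give the ratio within each control mouse and red symbols that within each KO mouse. All 5 mice fall on the same side of 0 for each member, from -2.74 for Acsl5 in control 1 to 1.81 for Fabp7 in control 2. How many of all genes do so was not counted.

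The direction could also be read within each mouse. In all 5 mice, KO mice included, cerebellum was higher than cortex for Acsl6, Acsbg1, Slc27a1 and Fabp7 and lower for the other 6 members. The control mice are those of the fit, so only the KO mice are added here. For Slc27a1 the control tissues overlapped. How many of all genes kept a single direction in all 5 mice was not counted. The within-mouse log2 ratio of Acsl5 was between -2.74 and -2.40 and that of Acsbg1 between 0.81 and 1.20. Fabp7 had the widest spread, from 0.89 in control 1 to 1.81 in control 2. The cell mixture differed between the tissues as well. Granule cell markers summed to 3051 to 3682 CPM in control cerebellum and 123 to 152 CPM in control cortex, microglia markers to 188 to 210 CPM and 431 to 491 CPM, and choroid plexus markers to 1194 to 3377 CPM and 27.7 CPM or less. Astrocyte and Bergmann glia markers had similar sums, 3666 to 3812 CPM and 2773 to 3820 CPM, although 5 of the 8 were called higher in cerebellum and 1 lower. The part of the mixture in the members' tissue differences was not tested.

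Levels can be compared between genes only per length, and were divided by the union of each gene's exons to give CPM per kilobase of exon (FPKM). In control cerebellum Acsbg1 was highest, 86.8 ± 2.62 FPKM (SD, n = 3), above Acsl3 at 40.0 ± 2.32 FPKM. Fabp7, Acsl6, Slc27a1, Slc27a4, Fabp5, Acsl4, Acsl1 and Acsl5 followed, down to 2.61 ± 0.23 FPKM. The ranges of neighbours in this order overlapped for Acsl3 with Fabp7, Fabp7 with Acsl6, and Fabp5 with Acsl4. In control cortex Acsl3 was first at 50.3 ± 2.20 FPKM, just above Acsbg1 at 41.8 ± 5.75 FPKM, whose highest library (48.4 FPKM) was close to the lowest of Acsl3 (49.0 FPKM). Acsl6 followed at 23.8 ± 2.07 FPKM, then Slc27a4, Fabp5, Slc27a1, Acsl4, Acsl5 and Fabp7, each overlapping its neighbour, and Acsl1 was last at 4.63 ± 0.30 FPKM.

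**Figure D5:**
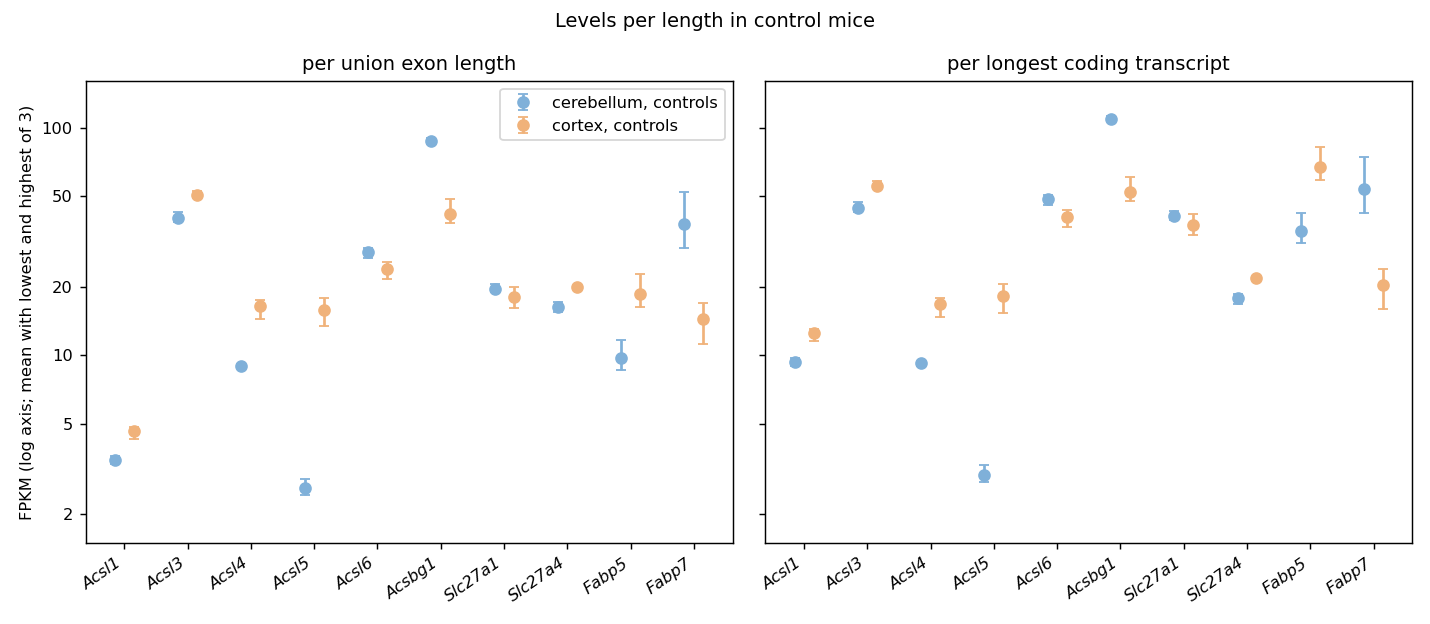
Level per length (FPKM, log axis) of each member in control cerebellum and control cortex, as the mean of 3 mice with bars from the lowest to the highest, divided by the union exon length (left) or by the longest coding transcript (right). Acsbg1 leads in cerebellum under both lengths (86.8 and 109 FPKM), and Fabp5 in cortex goes from 18.5 to 67.0 FPKM.

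Summed over the 8 synthetases, Acsbg1 made up 42.1% of the per-length level in control cerebellum and 21.9% in control cortex. Acsl3 made up 19.4% and 26.4%, Acsl6 13.7% and 12.5%, and Acsl5 1.27% and 8.31%. The order depended on the length used. With the longest coding transcript in place of the union exon length, an alternative chosen after seeing the data, 7 of the 10 members took another place in control cerebellum and 8 of 10 in control cortex. Fabp5 went from place 5 to place 1 in cortex, where its union of 3567 bases, which includes a transcript annotated as a retained intron, gave way to a coding transcript of 987 bases. In cerebellum Acsbg1 stayed first and Acsl5 last, Fabp7 came second, and Acsl3 went from place 2 to place 4. Under that length Acsbg1 made up 38.6% of the summed level in cerebellum and 20.5% in cortex, and Acsl5 1.06% and 7.13%. The order of Acsl3 and Acsl6 in cerebellum turned round, with 15.7% for Acsl3 and 17.2% for Acsl6, and the cerebellar share of Slc27a1 went from 9.52% to 14.6%.

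Acsl1, Acsl3, Acsl5 and Acsl6 share exonic bases with another gene, and the study's counting gave such reads to both genes without regard to strand. Acsl5 shares 8.31% of its exonic bases with Zdhhc6 on the opposite strand, whose 467 to 777 counts per library compare with as few as 219 for Acsl5. Zdhhc6 was itself lower in cerebellum by 0.59 on the log2 scale, a value that can include reads shared with Acsl5. Acsl3 shares 5.60% with Utp14b on the same strand, which had 416 to 770 counts against 3484 or more for Acsl3. Utp14b read 0.40 higher on the log2 scale in KO cerebellum (adjusted p 0.0703 in edgeR), a value that can include reads shared with Acsl3. The part of shared reads in the values of Acsl5 and Acsl3 was not tested. Acsl6 shares 2.04% with the antisense transcript Gm12224, and Acsl1 9.91% with Gm45244, which had 17 counts or fewer. Reads that fit several places were not counted. Of the 50-base words in the longest coding transcript of Fabp5, 21.1% also occurred in 5 processed pseudogenes, none of which had more than 5 counts, so the level of Fabp5 is the most exposed to this loss. For Acsl1, Acsl4, Acsbg1, Slc27a4 and Fabp7 no such word occurred in another gene's transcripts.

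Neighbouring steps of the pathway were counted over lists of related genes. In KO cerebellum the only related gene called was Mfsd2a, 1 of 3 uptake genes tested, where 1.55% of all genes were called. Mfsd2a, the transporter of lysophosphatidylcholine at the blood-brain barrier, read 7.56, 4.99 and 7.17 CPM in controls and 17.2 and 14.1 CPM in KO mice. Its log2 change was 1.24 ± 0.19 (SE) with an adjusted p of 0.0142 in edgeR. In cortex Mfsd2a read 14.6, 8.05 and 16.0 CPM against 28.7 and 23.0 CPM, with an adjusted p of 0.754. Endothelial markers summed to 132 to 146 CPM in control and 147 and 159 CPM in KO cerebellum, and to 81.7 to 167 CPM in control and 156 and 167 CPM in KO cortex, and their part was not tested. None of 11 other acyl-CoA synthetases, 1 other fatty acid binding protein (Fabp3), 5 acyl-CoA binding proteins, 12 thioesterases and 7 fatty acid responsive nuclear receptors tested in cerebellum was called by edgeR, with 4, 0, 0, 1 and 2 at an unadjusted p under 0.05, which 13.4% of all genes had. DESeq2 gave an adjusted p under 0.05 to 3 of these related genes, all higher in KO cerebellum, Acsm5 (0.0358), the thioesterase Acot11 (0.00852) and Rxra (0.0371), which are named after their values were seen. How many of all genes passed this DESeq2 rule, which has no fold threshold, was not counted. Acot11 has 20.9% of its exonic bases in other genes. No related gene was called in cortex by edgeR or DESeq2, with 2 thioesterases, 1 uptake gene and 1 nuclear receptor at an unadjusted p under 0.05 in edgeR, beside 5.93% of all genes.

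Between the control tissues the related genes went both ways, as the members did and as all genes did. The counts below stand beside 40.5% of all genes called (19.1% higher, 21.5% lower in cerebellum). Of 11 other synthetases 3 were called higher and 3 lower in cerebellum, among them the medium-chain synthetase Acsm5 (log2 difference 2.60), the acetyl-CoA synthetase family member Acss3 (1.80) and acetoacetyl-CoA synthetase Aacs (-0.50). Of 5 acyl-CoA binding proteins 2 were called, both higher, and Dbi, the main acyl-CoA binding protein, read 186 to 243 CPM in control cerebellum and 60.8 to 82.3 CPM in control cortex. Thioesterases, which undo the activation step, had 3 of 12 called higher and 3 lower, with Them4 (1.17) higher and Acot4 (-2.20) and Them6 (-0.61) lower. Acot4 belongs to a cluster of similar genes, and how far shared sequence affects its counts was not measured. Rxra and Rxrg were the 2 of 7 nuclear receptors called, both lower in cerebellum (-0.67 and -6.15). Rxrg read 22.5, 56.9 and 19.8 CPM in control cortex, highest in control 2, the library that was also highest in striatum markers.

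The genes whose pattern was most like that of Acsl3 and Slc27a1, over the 10 libraries after each tissue's mean was subtracted from log2 CPM, were found among 17430 genes. For Acsl3 they were Sdc4 (Pearson r 0.98), Gfap (0.98) and Ak3 (0.97, a gene with 22.9% of its exonic bases in other genes), and for Slc27a1 they were Mnt (0.98), Smox (0.97) and Pygm (0.97). These coefficients are descriptions over libraries that share mice and a genotype difference, and carry no test.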

How the data were processed

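RNA from cerebellum and cortex of 5 mice was sequenced as strand-specific mRNA libraries. The authors trimmed the reads, aligned them with STAR to GRCm38 and counted fragments per gene with featureCounts (Subread 2.0.1), without strand, multi-mapping reads left out and reads in overlapping genes given to each. The deposited tables hold these raw counts, 81881 entries per library, of which 26345 without a mouse gene identifier (0.160 to 0.926% of the counts) were left out.

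Counts were tested with edgeR 4.0.16 (quasi-likelihood, TMM, filterByExpr with a count minimum of 10) in R 4.3.3, with Benjamini-Hochberg adjustment over all genes tested. Genes were called at an adjusted p under 0.05 and an absolute log2 change over 0.5, and at the adjusted p alone for the difference of the KO effects. KO was compared with control within each tissue, and the tissues within controls. Alternatives were DESeq2 1.42.0, its size factors, no filter, no fold threshold, a replicate block, all libraries in 1 fit and leaving out each library. Log2 CPM used a prior count of 2.

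The members, the related lists, the markers and the rule for named genes were chosen with earlier results of these data known. The rule named every member, Snx14, up to 3 called genes per related list and comparison, and the 3 genes most like each of the 2 members with the smallest unadjusted p, as no member was called in KO. Each label pairs a cerebellum with a cortex of 1 mouse by an animal code, and the deviations from the group means correlated between the tissues (r 0.25 to 0.48). With 2 KO mice the deviations of KO 1 and KO 2 mirror each other, so both share a single r of 0.37. The scripts were tested on simulated data. Replicate libraries differed beyond sampling noise.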

Additional observations from a re-analysis of the deposited data

How the results depend on the processing

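No member was called in KO cerebellum, in KO cortex or for the difference of the KO effects, and 5 were called between the control tissues. Leaving out each library gave 0 to 0, 0 to 0, 0 to 0 and 5 to 5. Without the filter on low counts 1 member, Fabp7, was called in KO cerebellum (log2 change -0.53), in a fit whose prior degrees of freedom were infinite, so that all genes shared 1 trend of spread. With no fold threshold 2 members passed in KO cerebellum and 9 between tissues. Without control mouse 2, an alternative chosen after seeing the data, 6 were called between tissues with or without the block, Acsl1 being added. Of the member values under all alternatives, 472 kept their direction and their side of the threshold, 3 newly passed it and 15 changed sign, each of these among changes that no fit called.

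Sign changes on leaving out 1 library gave ranges in KO cerebellum of -0.0035 to 0.094 for Acsl1, -0.092 to 0.22 for Acsl5 and -0.060 to 0.034 for Slc27a4. In KO cortex they were -0.0013 to 0.13 for Acsl4, -0.016 to 0.22 for Acsl5, -0.22 to 0.049 for Fabp5 and -0.36 to 0.067 for Fabp7. For the difference of the KO effects they were -0.17 to 0.13 for Acsl5 and -0.055 to 0.11 for Slc27a1. Without control mouse 2 that of Acsl5 was 0.056, and 0.046 with the block, against -0.01. The cause was not tested.

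With the replicate block 0, 0, 5 and 0 members were called in the same comparisons. For KO against control, where the number is only a number (r 0.009 to 0.19), Acsl3 in cerebellum was 0.50 with an adjusted p of 0.0473 in edgeR and Slc27a1 0.30 with 0.209. Over all genes the block gave 181 calls against 302 in KO cerebellum, 3 against 0 in KO cortex, 8175 against 7871 between tissues and 128 against 21 for the difference of the KO effects. Over all genes, DESeq2 gave 427, 49 and 219 calls in KO cerebellum, KO cortex and for the difference, no filter 842, 380 and 599, and leaving out each library 133 to 400, 0 to 98 and 3 to 117. Without control mouse 2 the difference gave 198 calls, and 286 with the block.

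There were 2 KO and 3 control mice, of mixed sex and control genotype. The widest interval of a KO effect was that of Fabp7 in cerebellum, -1.08 to 0.04, and the fewest counts of a member in a library were 219, for Acsl5.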
